A study of Mus musculus with 6 samples.

Results

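Population C of a mouse embryonic stem cell line was compared with populations A and B after embryoid body differentiation. The RNA came from E14Tg2a cells, a widely used mouse embryonic stem cell line, at day 5 of differentiation, and polyadenylated transcripts were sequenced. All 3 populations carried Grx1-roGFP2 in the nucleus, a fluorescent sensor fusion that reports the glutathione redox state, and the letters name cell populations of this one line. From each population the 10% of live cells with the most oxidized and the 10% with the most reduced sensor were sorted, so each population gave 1 oxidized and 1 reduced library. The comparison therefore sets 2 libraries of C against 4 libraries of A and B, out of 6 in all, chosen by the population letter alone. Only 2 libraries stand on one side, and both come from the same population, so the tests measure spread among libraries and not between independently derived populations. Nothing in the labels says whether a letter stands for a clone, a culture or a day, so population and any of these cannot be told apart. Levels are FPKM, fragment counts scaled to transcript length and library size, and differences are on the log2(FPKM + 1) scale, where low genes change less than on the FPKM scale.

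Blood is among the first tissues that form in embryoid bodies. Mesodermal precursors that express the receptor Kdr and the transcription factor Etv2 give rise to endothelial cells and to primitive erythroblasts, the first red blood cells of the mouse embryo. Primitive erythroblasts make embryonic haemoglobin from the zeta chain (Hba-x) and the epsilon y and beta h1 chains (Hbb-y and Hbb-bh1), while Hba-a1, Hba-a2, Hbb-bs and Hbb-bt are the adult-type alpha and beta globin genes. The transcription factors Gata1 and Klf1 activate globin genes and many other genes of red cells, by binding GATA motifs and CACCC boxes.

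The promoters of 3 globin genes and of Klf1 are shown because these genes moved together in population C. Each is the RefSeq window around the gene's start in build GRCm38.p6, written in the direction of transcription. Capitals mark GATA motifs (GATA with A or T before it and A or G after it) and full matches to a CACCC box pattern (CCNCNCCC) on either strand. The letters CACCC outside a full match are left unmarked, as in the Hba-x and Hbb-y windows. The windows are chr11:32276350-32276649 (plus strand) for Hba-x, chr7:103853158-103853457 (minus strand) for Hbb-y, chr7:103827879-103828178 (minus strand) for Hbb-bs and chr8:84901732-84902031 (plus strand) for Klf1.
Hba-x: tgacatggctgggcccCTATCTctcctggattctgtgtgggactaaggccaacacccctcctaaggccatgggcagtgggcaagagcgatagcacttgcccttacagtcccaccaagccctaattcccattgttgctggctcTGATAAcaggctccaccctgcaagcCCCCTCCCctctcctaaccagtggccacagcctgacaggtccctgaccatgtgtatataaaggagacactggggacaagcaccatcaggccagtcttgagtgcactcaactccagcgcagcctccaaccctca
Hbb-y: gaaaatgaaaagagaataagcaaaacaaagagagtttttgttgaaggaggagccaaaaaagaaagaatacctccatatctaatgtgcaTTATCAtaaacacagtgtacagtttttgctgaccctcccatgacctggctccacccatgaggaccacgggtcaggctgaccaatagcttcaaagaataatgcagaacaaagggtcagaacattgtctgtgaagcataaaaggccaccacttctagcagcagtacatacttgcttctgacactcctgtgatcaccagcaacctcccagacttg
Hbb-bs: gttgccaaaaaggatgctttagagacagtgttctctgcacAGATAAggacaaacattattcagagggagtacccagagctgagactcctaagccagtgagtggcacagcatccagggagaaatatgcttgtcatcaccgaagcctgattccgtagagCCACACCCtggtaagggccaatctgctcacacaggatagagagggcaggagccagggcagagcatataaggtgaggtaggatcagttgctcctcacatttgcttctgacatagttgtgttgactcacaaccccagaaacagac
Klf1: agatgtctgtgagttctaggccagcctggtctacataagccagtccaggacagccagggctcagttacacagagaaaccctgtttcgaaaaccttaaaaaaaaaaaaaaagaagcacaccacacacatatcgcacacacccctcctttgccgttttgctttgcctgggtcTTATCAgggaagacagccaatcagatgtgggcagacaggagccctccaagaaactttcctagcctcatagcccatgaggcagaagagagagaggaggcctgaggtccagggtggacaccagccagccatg
Of the 15 genes of the primitive erythroid list, 10 had a window in the RefSeq table, and Hbb-bh1 is named only. A GATA motif lay in 8 of these 10 windows and a match to the CACCC box pattern in 6 of 10. Across all 32851 promoter windows of the same length, 29.8% held a GATA motif and 49.5% held a match to the CACCC box pattern. These matches describe the letters in the windows and are not evidence of binding.

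The libraries stood apart in ways that touch the comparison. The estimated depth was lowest for the 2 libraries of C, at 1.19e+07 and 1.26e+07 fragments, against 1.54e+07 to 1.8e+07 for A and B. Oxidized A and oxidized B differed from the other 4 libraries: an annotated ribosomal RNA locus was at 1410 and 1736 FPKM there and at 34116 to 43825 FPKM elsewhere, and the summed mitochondrial mRNAs were at 7348 and 5160 FPKM, against 2324 to 3917 FPKM. Oxidized C lay with the reduced libraries in both measures. On the second principal component, which carried 24.5% of the variance, oxidized C was at -35.6 and reduced C at -12.5, while the libraries of A and B lay between 6.56 and 20.9. Oxidized C correlated most closely with reduced C (r = 0.969 across genes, which are no replicates). Reduced C itself correlated most closely with reduced A (r = 0.973). The pluripotency factor Pou5f1 was at 73.0 to 199 FPKM in the 6 libraries and the primitive streak gene T at 3.47 to 15.0 FPKM, so both undifferentiated and early mesodermal transcripts were present.

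Globin genes and other erythroid genes were higher in population C than in A and B, in both redox states. Of 12191 genes tested, 16 were called at an adjusted p under 0.05 (limma with Benjamini-Hochberg adjustment, redox state as covariate), which is 0.131% of the genes. Of these, 12 were higher in C (0.0984%) and 4 were lower (0.0328%), and 6 of the 12 were globin genes, counting Hbb-bh0, which is annotated as an unprocessed pseudogene. The other 6 included Klf1, Cited4 and 3 genes at loci that share sequence with other genes, Scamp4, Commd1b and Rpl27-ps3. At an unadjusted p under 0.05, 548 genes were higher (4.50%) and 767 lower (6.29%), and 42.1% of all tested genes had a positive difference. The median difference over all tested genes was -0.05. With the population as a random block, 173 genes were called (1.42%), 91 higher (0.746%) and 82 lower (0.673%), including all 16 of these. The consensus correlation of that block was -0.385, which is negative, and the blocked fit called more genes than the fit without it. Values given with the block are those of this alternative fit.

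**Figure D1:**
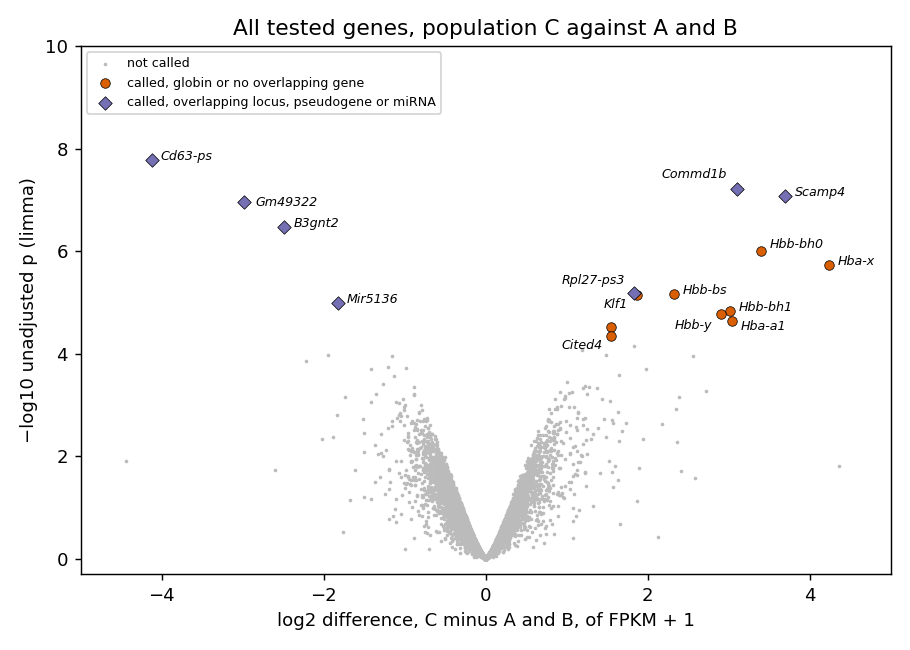
Each point is 1 of the 12191 tested genes, with the log2 difference of C minus A and B on the x axis and −log10 of the unadjusted limma p on the y axis. Called genes named in the text are labelled; the globin genes lie to the right between 2.33 and 4.24, and the 4 genes lower in C lie to the left.

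The embryonic alpha-like globin Hba-x (chr11:32276400-32278116) showed the largest difference of the called genes. It was at 10.4 FPKM in oxidized A, 17.5 in oxidized B, 9.48 in reduced A and 28.8 in reduced B, and at 314 FPKM in oxidized C and 290 in reduced C. Both C libraries lay far above all 4 others, and the 2 redox states of C were alike. The mean was 302 ± 16.8 FPKM in C (SD, n = 2) and 16.5 ± 8.91 FPKM in A and B (SD, n = 4), an 18.3-fold ratio and a log2 difference of 4.24 (SE 0.38, limma adjusted p = 0.00319).

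The embryonic beta-like globins behaved in the same way. Hbb-bh1 (chr7:103841637-103843164) was at 62.9, 41.2, 16.2 and 31.3 FPKM in oxidized A, oxidized B, reduced A and reduced B, against 267 FPKM in oxidized C and 299 in reduced C (log2 difference 3.02, SE 0.35, limma adjusted p = 0.0149). Hbb-y (chr7:103851749-103853216) was much lower, at 0.684, 1.34, 0.786 and 3.69 FPKM in the same 4 libraries, and rose to 13.8 and 20.9 FPKM in C (log2 difference 2.91, adjusted p = 0.0161). The neighbouring beta-like locus Hbb-bh0 (chr7:103850020-103850148), annotated over a short stretch as an unprocessed pseudogene, was at 1.08 to 6.60 FPKM in A and B and at 52.8 and 35.7 FPKM in C (log2 difference 3.40, adjusted p = 0.00204). None of these 4 genes shares a 31-base stretch with another annotated gene, and in none did C overlap A and B. The adjusted p of Hbb-bh1 was 0.0883 without oxidized B and 0.143 without reduced B, and that of Hbb-y 0.0832 without oxidized A and 0.0621 without oxidized B.

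The adult-type globins were also higher in C, at lower levels. Hba-a1 (chr11:32283511-32284465) was at 2.70 to 14.6 FPKM in A and B and at 73.0 and 69.3 FPKM in C (log2 difference 3.04, limma adjusted p = 0.0204). Its near copy Hba-a2 was at 1.32 to 6.03 FPKM against 17.8 and 26.5 FPKM and was not called (log2 difference 2.56, adjusted p = 0.0621; 0.0159 with the population block). Hbb-bs (chr7:103826534-103828096) was at 0.652 to 2.30 FPKM against 10.8 and 12.4 FPKM (log2 difference 2.33, adjusted p = 0.0089). Hbb-bt was at 0.591 to 1.79 FPKM against 6.07 and 6.62 FPKM and narrowly missed the threshold (log2 difference 1.84, adjusted p = 0.0517; 0.0136 with the block). The split within each pair is uncertain: 71.4% of the 31-base stretches of Hba-a1 and 91.0% of those of Hba-a2 occur in other genes, and 66.9% and 59.4% of those of Hbb-bs and Hbb-bt. The adjusted p of Hba-a1 was 0.0927 without oxidized A, 0.0538 without oxidized B and 0.115 without reduced B, and that of Hbb-bs 0.0943 without reduced B.

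Summed over 7 globin genes (the 8 above without Hbb-bh0), the level was 702 FPKM in oxidized C and 724 FPKM in reduced C. In A and B it was 88.9, 84.8, 31.8 and 77.9 FPKM in oxidized A, oxidized B, reduced A and reduced B. The embryonic chains Hba-x, Hbb-y and Hbb-bh1 made up 84.7% and 84.2% of this sum in C, and 70.8% to 83.2% in A and B. The total was thus far higher in C, with embryonic chains the larger share in every library. In these bulk samples, more cells of a type and more RNA per cell cannot be told apart.

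**Figure D2:**
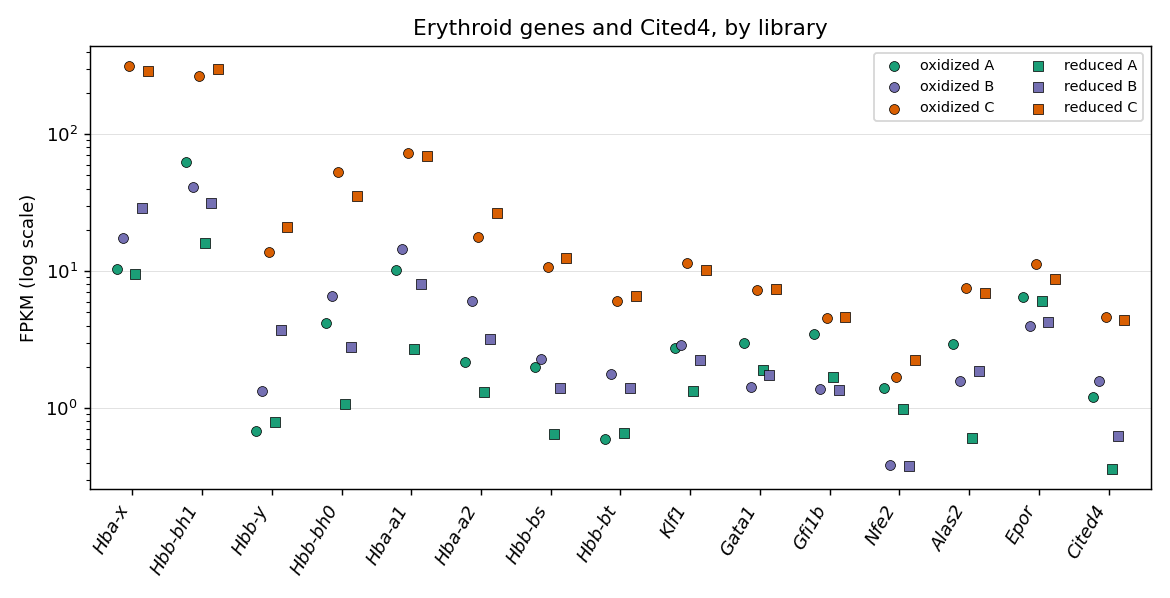
FPKM on a log axis for 14 erythroid genes and for Cited4 in the 6 libraries, with population by colour and redox state by symbol. For every gene plotted both libraries of C (orange) lie above all 4 libraries of A and B, from Hba-x at 314 and 290 FPKM down to Nfe2 at 1.68 and 2.25 FPKM.

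Among 8 tested regulators of the red cell lineage Klf1 was called and the other 7 were not. Klf1 (chr8:84901928-84905291), the erythroid Krüppel-like factor, was at 2.73, 2.89, 1.33 and 2.25 FPKM in oxidized A, oxidized B, reduced A and reduced B, and at 11.4 and 10.2 FPKM in oxidized and reduced C (log2 difference 1.87, SE 0.20, limma adjusted p = 0.0089; 0.0675 without reduced B). Gata1 (chrX:7959260-7978071) was at 3.004, 1.43, 1.90 and 1.76 FPKM against 7.23 and 7.38 FPKM (log2 difference 1.48, adjusted p = 0.0621; 0.0110 with the block). Neither gene overlapped between C and the other populations. Gfi1b, a repressor needed for red cell maturation, had a log2 difference of 0.95 (adjusted p = 0.299), and Nfe2, a subunit of the factor NF-E2, one of 0.76 (adjusted p = 0.377). Tal1, a partner of Gata1, stayed under the expression filter, at 0.434 to 0.794 FPKM in A and B and 1.97 and 1.24 FPKM in C. Lmo2, which bridges Tal1 and Gata1, was at 9.18 and 10.3 FPKM in C against 1.99 to 8.38 FPKM and was called only among the reduced libraries (log2 difference 1.63, adjusted p = 0.0241, against 0.21 among the oxidized). That difference between the states did not pass its own test (interaction adjusted p = 0.178). Zfpm1, a cofactor of Gata1, was at 25.4 and 21.7 FPKM in C against 5.69 to 17.3 FPKM (log2 difference 1.30, adjusted p = 0.291). Gata2, a factor of blood progenitors, overlapped between the groups, at 2.71 and 3.59 FPKM in oxidized and reduced C against 1.94 to 4.10 FPKM (log2 difference 0.18, adjusted p = 0.803; -0.25 among the oxidized). Runx1, Bcl11a and Lyl1 stayed under the filter and were not above the range of A and B in either C library. Bcl11a, a repressor of globin genes, was at 0.112 FPKM in oxidized C against 0.394 and 0.423 FPKM in the oxidized libraries of A and B. Among the reduced libraries it lay the other way, at 0.139 FPKM in C against 0.0817 and 0.0305 FPKM in A and B. Tal1, Lmo2, Zfpm1, Gata2, Runx1, Bcl11a, Lyl1 and Etv2 were picked with their values known.

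Genes of haem synthesis and of the red cell surface gave a mixed result. Alas2, the erythroid first enzyme of haem synthesis (chrX:150547375-150570638), was at 0.608 to 2.95 FPKM in A and B and 7.52 and 6.93 FPKM in C (log2 difference 1.65, limma adjusted p = 0.113; 0.0094 with the block). The other 11 haem and iron genes tested, a set chosen after the values were seen, ranged from -0.68 to 0.28 with a smallest adjusted p of 0.36. The erythropoietin receptor gene Epor was at 4.01 to 6.47 FPKM against 11.2 and 8.77 FPKM (log2 difference 0.84, adjusted p = 0.295). The anion exchanger gene Slc4a1, a gene of late red cells, was near 0 everywhere, at 0 to 0.0839 FPKM in A and B and 0.308 and 0.412 FPKM in C.

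As a whole, 13 of the 15 genes of the primitive erythroid list were tested, and 5 were called higher in C and none lower, where 0.0984% of all genes were called higher. The 5 were Hba-x, Hba-a1, Hbb-bh1, Hbb-y and Klf1, while Hbb-bs and Hbb-bh0 are not on the list. Slc4a1 stayed under the filter, and Ahsp was not analysed here. All 13 had both C libraries above all libraries of A and B, which held for 763 of the 12191 tested genes, or 6.26%. Their median log2 difference was 1.87, against -0.05 for all tested genes. Of the 13, 12 averaged at least 1 FPKM over A and B alone, the exception being Nfe2, which passed the filter through C. With the block, 10 of the 13 were called. Without redox state as covariate 1 was called, and without reduced B 2 were called. This list was drawn up with earlier results of these data known and is not independent evidence of the direction.

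Of 11 markers of other blood lineages, also picked with values known, 9 stayed under the expression filter and neither of the 2 tested was called. Cd68, a lysosomal gene abundant in macrophages, was at 4.65 and 9.43 FPKM in oxidized and reduced C against 9.21 to 15.8 FPKM in A and B, which overlap (log2 difference -0.68, limma adjusted p = 0.361). Itga2b, the integrin gene of platelets and early blood progenitors, was at 1.62 and 1.65 FPKM against 0.817 to 1.45 FPKM (log2 difference 0.25, adjusted p = 0.656). The leukocyte antigen gene Ptprc was listed at 0 in all 6 libraries. The macrophage receptor gene Csf1r reached at most 0.0546 FPKM, the myeloid factor gene Spi1 0.540 FPKM and the granule enzyme gene Mpo 0.573 FPKM, each in a library of A or B. Gp9, a platelet glycoprotein gene, was at 1.55 and 1.08 FPKM in oxidized and reduced C and at 0 to 0.131 FPKM in A and B, while Gp1bb of the same complex stayed at or below 0.125 FPKM in all libraries. Endothelial and haemangioblast genes moved little: 9 of 14 tested were higher in C, none was called, and their median was 0.21. Kdr was at 5.65 and 3.59 FPKM in C against 3.22 to 4.001 FPKM in A and B (log2 difference 0.31, limma adjusted p = 0.555). Etv2 was at 35.5 and 33.0 FPKM against 14.9 to 24.2 FPKM, without overlap (log2 difference 0.77, adjusted p = 0.247; 0.0347 with the block). The most abundant member, the endothelial secreted factor gene Egfl7, was at 32.6 and 28.05 FPKM against 18.5 to 27.5 FPKM (adjusted p = 0.594).

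Cited4, which has no overlap or shared sequence with other genes, was also called higher. This transcriptional coactivator gene was at 0.358 to 1.57 FPKM in A and B against 4.66 and 4.37 FPKM (log2 difference 1.55, limma adjusted p = 0.0346). It lost its call when any 1 library of A or B was left out, with adjusted p up to 0.23.

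Another 7 called genes lay at overlapping loci or were pseudogenes or a miRNA. Scamp4, a secretory carrier membrane protein gene (chr10:80602872-80615783), and Gm49322 (chr10:80606021-80615784) overlap on the same strand, and 98.5% and 71.3% of their 31-base stretches occur in other genes, each other included. Scamp4 was at 2.41 to 4.92 FPKM in A and B and at 48.1 and 53.5 FPKM in C (log2 difference 3.69, limma adjusted p = 0.000338). Gm49322 was at 20.01 to 28.4 FPKM in A and B and at 2.55 and 1.88 FPKM in C (log2 difference -2.98, adjusted p = 0.000338). The sum of both was 24.9 to 30.8 FPKM in A and B and 50.7 and 55.4 FPKM in C, so the level assigned to the locus differed by less than either gene did. The sources used here do not give how fragments were split between them.

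The same opposite pattern was seen at a second locus. B3gnt2, a glycosyltransferase gene (chr11:22759738-22860961), was at 6.47, 7.62, 12.4 and 13.3 FPKM in oxidized A, oxidized B, reduced A and reduced B, and at 0.664 and 1.13 FPKM in C (log2 difference -2.49, limma adjusted p = 0.000832). Commd1b (chr11:22834744-22982090), which shares 99.9% of its exon bases with B3gnt2 and Commd1, was listed at 0 in all 4 libraries of A and B and held 6.34 and 9.14 FPKM in oxidized and reduced C (adjusted p = 0.000338). The sum of B3gnt2 and Commd1b was 6.47 to 13.3 FPKM in A and B and 7.01 and 10.3 FPKM in C, so the summed levels overlapped. Commd1, a copper metabolism gene, did not pass the test (log2 difference 0.09, adjusted p = 0.89).

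**Figure D3:**
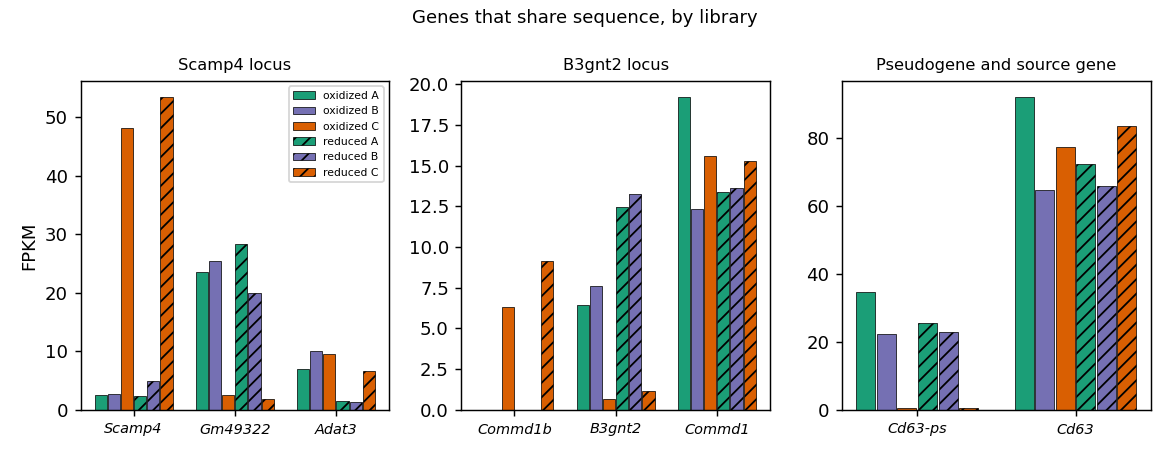
Bars give FPKM in each library for the genes of 2 overlapping loci and for a pseudogene beside its source gene, with population by colour and reduced libraries hatched. Scamp4 and Commd1b are high in C where Gm49322 and B3gnt2 are low, and Cd63 is between 64.8 and 92.1 FPKM in all libraries.

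The largest decrease was that of the pseudogene Cd63-ps (chr18:50134726-50135600), at 22.3 to 34.7 FPKM in A and B and 0.470 and 0.626 FPKM in C (log2 difference -4.12, limma adjusted p = 0.000201). Of its 31-base stretches, 61.4% occur in Cd63, the tetraspanin gene from which it derives, and Cd63 itself was at 64.8 to 92.1 FPKM in A and B and 77.3 and 83.6 FPKM in C (adjusted p = 0.822). The pseudogene Rpl27-ps3 (chr18:6332632-6333042) was at 9.88 to 14.5 FPKM in A and B and 49.6 and 40.1 FPKM in C (log2 difference 1.84, adjusted p = 0.0089). All of its stretches occur elsewhere (100%), and the ribosomal protein gene Rpl27 had a log2 difference of 0.02 (adjusted p = 0.982). The miRNA gene Mir5136 (chr19:8888699-8888774) was at 2.51 to 4.59 FPKM in A and B and 0.268 and 0.342 FPKM in C (log2 difference -1.83, adjusted p = 0.0115). Mir5136 lost its call without oxidized A, oxidized B or reduced B (adjusted p = 0.0525, 0.0538 and 0.125), and Rpl27-ps3 without reduced B (0.0851). A poly(A) library measures a miRNA gene's longer transcripts and not the mature miRNA.

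Setting C against A and against B separately gave similar counts of called genes. C against A called 15 genes (0.123%), 11 higher (0.0902%) and 4 lower (0.0328%), and C against B called 12 (0.0984%), 8 higher (0.0656%) and 4 lower (0.0328%). These comparisons share the libraries of C. B against A called no gene, with 268 genes at an unadjusted p under 0.05 in limma, and no alternative setting called any. Hba-x was 4.79 higher than in A and 3.69 higher than in B on the log2 scale, and B lay 1.10 above A. Hbb-bh1 differed by 3.10 and 2.94, and Klf1 by 2.00 and 1.73.

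Comparing within each redox state gave more calls among the oxidized than among the reduced libraries. Among the oxidized libraries 481 genes were called (3.95%), 156 higher (1.28%) and 325 lower (2.67%) in C. With median-ratio scaling these were 172 higher and 207 lower, and with quantile normalization 149 and 173. Among the reduced libraries 55 were called (0.451%), 40 higher (0.328%) and 15 lower (0.123%). Each of these fits has a single library of C, which was assumed to vary like the others. The states shared 27 calls, which is 5.6% of the oxidized and 49.1% of the reduced calls, and 23 of the 27 had the same direction. Of the 16 genes called in both states together, 15 were called in each state alone. Of the erythroid list, 10 were called higher in each state.

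Pluripotency genes tended to lower values in C, without any call in both states together. Of 18 tested core and primed pluripotency genes, 16 were lower in C and the median was -0.41, against 57.9% lower and a median of -0.05 for all genes. With the block 2 of the 18 were called lower, against 0.673% of all genes. Nanog, a factor that maintains the undifferentiated state, was at 44.3, 49.0, 24.2 and 27.2 FPKM in oxidized A, oxidized B, reduced A and reduced B, and at 11.5 and 18.2 FPKM in oxidized and reduced C. It lay below all other libraries in C but was not called (log2 difference -1.20, limma adjusted p = 0.269; 0.0347 with the block). Utf1, a chromatin-associated pluripotency gene, was at 62.9 FPKM in oxidized C and 166 FPKM in reduced C against 154 to 261 FPKM, and was called only among the oxidized (log2 difference -1.79, adjusted p = 0.00406; interaction adjusted p = 0.111). Pou5f1 and Sox2 had log2 differences of -0.56 and -0.36 (adjusted p = 0.40 and 0.527). Of 13 naive pluripotency genes, 11 were lower with a median of -0.30. Among them Zfp42 was at 56.0 and 56.5 FPKM in C, within the range of 38.4 to 128 FPKM in A and B, and Dppa3 had a log2 difference of -0.20 (adjusted p = 0.702).

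Epithelial genes showed a similar lean in the oxidized state. Of 18 tested, 14 were lower in C with a median of -0.38, and 5 were called lower among the oxidized libraries, where 2.67% of all genes were called lower. Cdh1, which encodes E-cadherin, was at 14.8 and 29.3 FPKM in oxidized and reduced C against 35.4 to 51.0 FPKM (oxidized log2 difference -1.46, limma adjusted p = 0.00987; 0.247 in both states together and 0.0347 with the block). Epcam, an epithelial adhesion gene, was at 41.5 and 92.3 FPKM against 104 to 133 FPKM (oxidized adjusted p = 0.0106; 0.274 together and 0.0392 with the block). The tight junction gene Cldn6 was at 40.8 and 77.7 FPKM against 87.6 to 121 FPKM (oxidized adjusted p = 0.00494; 0.342 together). These 3 were chosen after their values were seen. The most abundant member, the keratin gene Krt8, lay the other way, at 620 and 550 FPKM in C against 311 to 444 FPKM (log2 difference 0.68, adjusted p = 0.349).

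Mesodermal, cardiac transcription factor and matrix genes leaned towards higher values. Of 17 early and lateral mesoderm genes, 15 were higher in C with a median of 0.26. Foxf1, a factor of lateral mesoderm, was at 40.4 and 37.0 FPKM in C against 17.1 to 25.0 FPKM (log2 difference 0.93, limma adjusted p = 0.214; 0.0347 with the block). Of 10 cardiac transcription factor genes, 9 were higher with a median of 0.53. Hand2, a heart factor, was at 11.2 and 5.14 FPKM in C against 2.42 to 6.41 FPKM, which overlap (log2 difference 0.78, adjusted p = 0.247; 0.0355 with the block). Foxf1, Hand2 and the growth inhibitor gene Cdkn1c were chosen after their values were seen. Isl1 was at 11.8 and 8.996 FPKM against 5.16 to 6.85 FPKM (log2 difference 0.63, adjusted p = 0.305), and Gata6 had a log2 difference of 0.75 (adjusted p = 0.258; 0.0471 with the block). By contrast Gata4 and Hand1 were near 0, at 0.03 and 0.01 (adjusted p = 0.974 and 0.994). Of 16 fibroblast and mesenchyme matrix genes, 14 were higher with a median of 0.39. Vim, an intermediate filament gene, was at 93.7 and 64.4 FPKM against 38.5 to 53.1 FPKM (log2 difference 0.70, adjusted p = 0.328), and Col3a1 had a difference of 0.56 (adjusted p = 0.428). Acta2, the most abundant member of the sarcomere list, had one of 0.82 (adjusted p = 0.336), but the other tested members of that list lay in both directions. Tagln, Tnni1 and Myl7 differed by 0.44, 0.20 and 0.08, and Actc1, Myl3, Tnnc1 and Tpm1 by -0.17, -0.13, -0.07 and -0.28. Of 17 imprinted genes, 13 were higher with a median of 0.41. Mest was at 892 and 529 FPKM in C against 442 to 712 FPKM (adjusted p = 0.564), and Cdkn1c was at 119 and 80.8 FPKM against 33.8 to 58.8 FPKM (log2 difference 0.98, adjusted p = 0.18; 0.0285 with the block).

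The remaining lineage and metabolic lists described here had no called gene in both states together, and their medians lay between -0.29 and 0.26. Of 14 primitive streak genes, 10 were lower with a median of -0.10, and T, Eomes and Fgf8 had log2 differences of -0.22, -0.50 and -0.28 (limma adjusted p = 0.676, 0.452 and 0.543). Of 23 primitive and visceral endoderm genes, 16 were lower with a median of -0.09, and Ttr, Sox17 and Apoe had differences of -0.45, -0.09 and -0.63 (adjusted p = 0.466, 0.946 and 0.525). Foxa2 and Trh of the definitive endoderm list had differences of -0.09 and -0.40. Of 17 Hox genes, 13 were higher with a median of 0.26, and Hoxa10 had one of 0.48 (adjusted p = 0.398). Of 21 glycolysis genes, 20 were lower with a median of -0.29, and of 25 genes of G2 and mitosis 24 were lower with a median of -0.25. Ldha, the last enzyme of anaerobic glycolysis, was at 1310.5 and 1318 FPKM in C against 1297 to 1795 FPKM (log2 difference -0.23), and the glucose transporter gene Slc2a1 had one of -0.41.

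**Figure D4:**
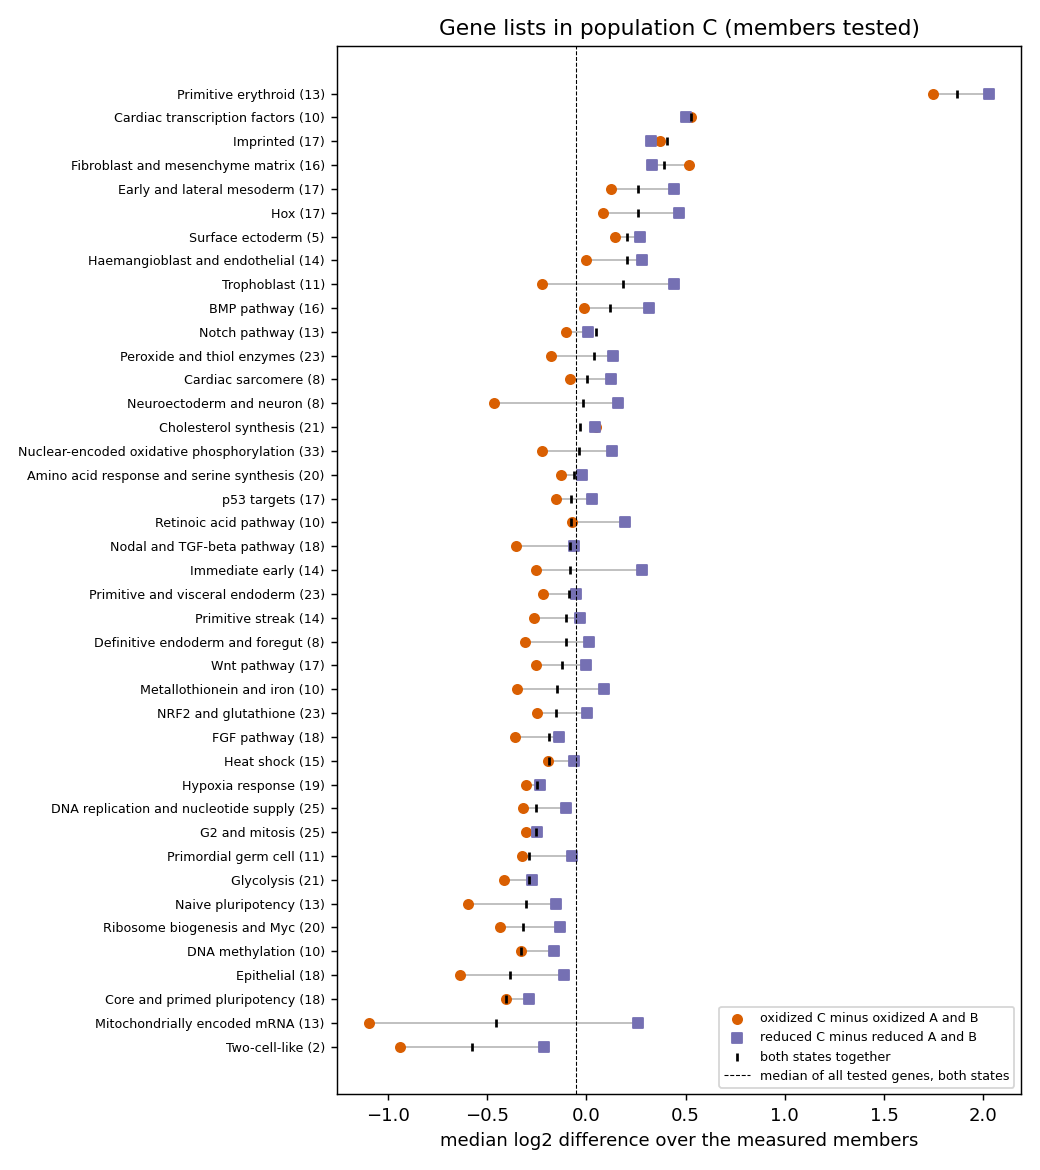
Median log2 difference between C and the other populations over the tested members of each of 41 gene lists (number in brackets), for oxidized libraries (circles), reduced libraries (squares) and both together (ticks). The primitive erythroid list lies at 1.75 and 2.03 in the 2 states, and every other list lies between -1.10 and 0.53.

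The 14 genes that fill the places left by called genes under the naming rule were not called in both states together. The transfer RNA gene mt-Td was at 0.126, 0.252, 5.005 and 0.211 FPKM in oxidized A, oxidized B, reduced A and reduced B and at 5.54 and 20.2 FPKM in C (limma adjusted p = 0.173). The signal recognition particle RNA genes Rn7s1 and Rn7s2, whose sequence is wholly shared, were at 36.0 to 38.0 FPKM in C and 2.43 to 12.3 FPKM in A and B (adjusted p = 0.222 and 0.18). On the other side Rpa1, a subunit of the single-stranded DNA binding complex of replication, was at 2.99 and 2.44 FPKM against 4.33 to 23.1 FPKM (log2 difference -1.73, adjusted p = 0.18). Ier3, an early response gene, was at 3.89 and 8.96 FPKM against 13.9 to 28.6 FPKM (log2 difference -1.52, adjusted p = 0.247), and Bhlhe40, a repressor of the circadian clock, at 5.005 and 6.11 FPKM against 10.6 to 15.4 FPKM (log2 difference -1.13, adjusted p = 0.117). Pawr, Get1, Dlst, Rps13-ps5 and Mir703 differed by -1.23, -1.16, -1.15, -1.35 and -1.11, with adjusted p from 0.175 to 0.349. With the block mt-Td, Rn7s2, Rpa1, Ier3, Bhlhe40, Get1, Dlst and Rps13-ps5 were called, with adjusted p from 0.0136 to 0.0492. The 30 genes of the rule that are not named ranged from -1.67 to 1.25, with a smallest adjusted p of 0.328.

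The difference between oxidized and reduced cells was not the same in C as in A and B for a set of genes. Of 402 genes that differed between the states by more than 1 on the log2 scale in A and in B in the same direction, 268 (66.7%) had that direction in C, 56 by more than 1, and 6 differed by more than 1 the other way. These genes were picked by A and B and not by C, which favours A and B. The same count with A or B left out is not given. Across genes, the oxidized minus reduced difference correlated at r = 0.51 between A and B, and at 0.22 and 0.26 between C and A or B. Other genes kept their direction. The difference of Crabp1, which binds retinoic acid, was 2.01, 2.43 and 1.22 in A, B and C, that of the Wnt antagonist gene Frzb 2.02, 1.77 and 1.69, and that of T -1.28, -1.51 and -1.80. Crabp1 and Frzb were thus higher in oxidized cells and T lower in all 3 populations.

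The test of the difference between the states in C against that in A and B called 115 genes (0.943%), 31 higher (0.254%) and 84 lower (0.689%, limma interaction term). With the population as a fixed block 240 were called, 74 higher and 166 lower. With median-ratio scaling 71 were called, 28 higher and 43 lower, and with quantile normalization 39, 18 higher and 21 lower. For 87 of the 115 (75.7%), oxidized A and B both lay outside the reduced libraries on one side, against 44.1% of all tested genes, and for 55 (47.8%) oxidized C lay within the range of the reduced libraries, against 37.4%. The same values picked the 115, so these shares describe the called genes and are no separate test. No gene of the erythroid list was among the 115.

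The cytochrome oxidase transcript mt-Co3 was at 2710 and 1525 FPKM in the oxidized libraries of A and B, at 128 FPKM in oxidized C, and at 112, 147 and 199 FPKM in reduced A, B and C (interaction -4.62, limma adjusted p = 0.000146). The transcript mt-Co2 followed it at 682 and 372 FPKM against 44.3 FPKM in oxidized C (interaction -3.94). Tmem97, which encodes a sterol-regulated membrane protein, was at 145 and 109 FPKM against 17.0 FPKM, and the endoplasmic reticulum chaperone gene Calr at 305 and 296 FPKM against 59.8 FPKM, with reduced libraries at 12.95 to 18.1 and at 59.3 to 62.4 FPKM. In these 4 genes oxidized C lay with the reduced libraries or close to them. Klf5, a factor of the pluripotent state, was at 10.3 and 11.4 FPKM in the oxidized libraries of A and B and at 1.15 FPKM in oxidized C, below the 2.45 to 2.91 FPKM of the reduced libraries (interaction -2.56, adjusted p = 0.00639). The metallothionein gene Mt1 was likewise lowest in oxidized C, at 38.2 FPKM, against 183 and 200 FPKM in the oxidized libraries of A and B (interaction -2.54, adjusted p = 0.0106).

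In the other direction, the zinc transporter gene Slc39a1 was at 2.02 and 1.64 FPKM in the oxidized libraries of A and B, and at 19.8 FPKM in oxidized C, with 12.2 to 15.0 FPKM in the reduced libraries (interaction 2.71, limma adjusted p = 0.0041). The activin receptor gene Acvr1b and the purine synthesis gene Pfas gave the same picture, at 8.94 and 11.0 FPKM in oxidized C against 1.23 to 1.33 and 2.23 to 2.98 FPKM in the oxidized libraries of A and B (interactions 2.19 and 1.96). Peg3, an imprinted zinc finger gene, was instead high in oxidized C alone, at 108 FPKM against 16.1 to 40.6 FPKM in the other 5 libraries (interaction 3.07, adjusted p = 0.0147). Ctdsp2, a phosphatase gene, showed this too, at 20.6 FPKM against 3.32 to 5.199 FPKM (interaction 2.22). The imprinted gene Peg10 was at 117 and 90.3 FPKM in oxidized and reduced C, above all libraries of A and B, whose range was 17.7 to 64.2 FPKM (interaction 1.97, adjusted p = 0.0249). The ribosomal RNA and mitochondrial levels given above separate oxidized A and B from the other 4 libraries in the same way as many of these genes, and their part in these differences was not tested.

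**Figure D5:**
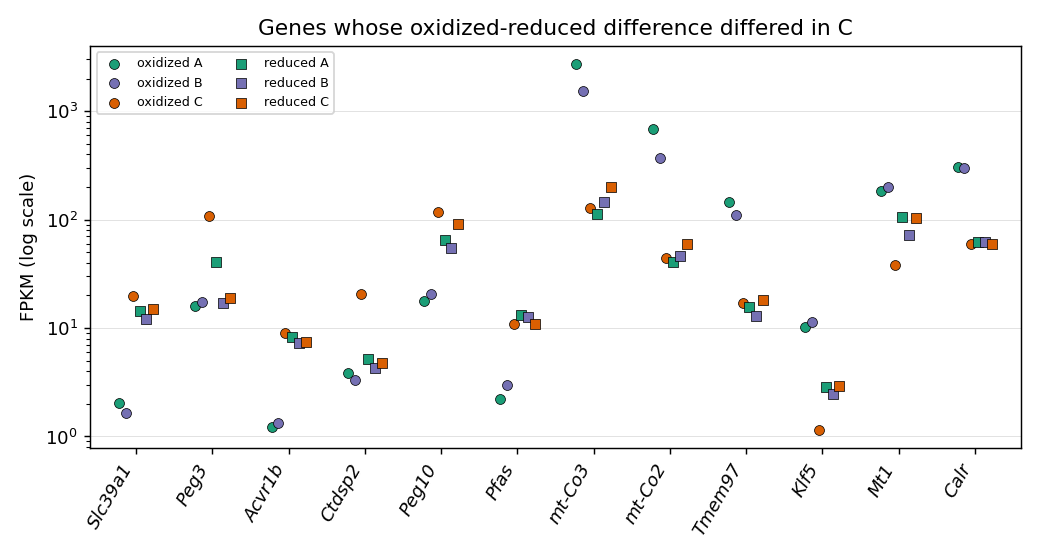
FPKM on a log axis in each library for the 12 genes with the smallest p for a redox difference that differs in C (6 in each direction), with population by colour and redox state by symbol. Oxidized A and B stand apart from the other libraries for mt-Co3 (2710 and 1525 against 112 to 199 FPKM), whereas Peg3 is high in oxidized C alone (108 FPKM).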

How the data were processed

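RNA of 6 sorted libraries (oxidized and reduced cells of populations A, B and C) was sequenced as stranded paired ends, per the labels' protocols. The authors deposited 1 table of 31265 genes with FPKM per library, per the file headers. Upstream, StringTie, HISAT2, cutadapt, FastQC, edgeR and the mm10 build are listed in the submitters' processing notes, and the sources used here do not give how fragments matching several genes were assigned. Only 23.5% to 25.7% of low FPKM values, multiplied by transcript length, were whole multiples of 1 step (within 2%), so reads were not recovered and no count test was run. The step size gave the estimated depths.

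The test scale was log2(FPKM + 1), and 12191 genes averaging 1 FPKM or more were tested. limma 3.58.1 in R 4.3.3 (lmFit, eBayes with trend, two-sided, Benjamini-Hochberg adjustment over all tested genes, threshold 0.05) fitted C against A and B with redox state as covariate. A fit of the 4 combinations of state and side gave the contrasts within a state and their interaction, and a fit of the 3 populations gave the pairwise contrasts. The fits were checked on simulated data. The series' design text says that both states came from the same populations, so the letter pairs the libraries. Deviations from the state means correlated across genes at -0.06, 0.07 and 0.20 within A, B and C, and the consensus correlation of the random block was -0.385. Oxidized A with reduced B gave 0.132 and oxidized B with reduced A 0.12, both above the values within A and within B. Pairs of C with A or B lay between -0.17 and -0.054. The letters are those of the table's columns and are not tied to the labels' replicate numbers.

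The members, the 41 gene lists and the naming rule were chosen with earlier results of these data known. The rule names the 12 largest called increases and decreases that have a symbol other than a gene model number, average 5 FPKM or more and show no overlap between C and the rest, filled from genes at an unadjusted p under 0.05. It adds the 3 smallest p of each list with a called member, the most abundant member of other lists, a set of lineage genes, and the 6 smallest interaction p in each direction. Locations, overlaps and shared 31-base stretches come from GENCODE vM21 (GRCm38, the mm10 assembly), promoters from RefSeq (GRCm38.p6). Alternatives covered the filter, pseudocount, scaling, trend, robust estimation, covariate, block and left-out libraries. A few results that need withheld items are not reported here.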

Additional observations from a re-analysis of the deposited data

Results flagged for a closer look

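Several values stood apart from the rest of their group. For 5 of the 78 genes named in the main comparison, 1 of the 4 libraries of A and B lay far from the other 3, where chance gives about 1 in 20. Dlst was at 7.658 FPKM in reduced B, Egfl7 at 18.53 FPKM in reduced B, Gfi1b at 3.47 FPKM in oxidized A, Scamp4 at 4.922 FPKM in reduced B and mt-Td at 5.005 FPKM in reduced A.

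The oxidized minus reduced difference of 115 genes differed between C and the other populations by limma's interaction term. Among those named, the difference was higher in C by 2.71 on the log2 scale for Slc39a1, 3.07 for Peg3, 2.19 for Acvr1b, 2.22 for Ctdsp2, 1.97 for Peg10 and 1.96 for Pfas. The interaction was -4.62 for mt-Co3, -3.94 for mt-Co2, -3.14 for Tmem97, -2.56 for Klf5, -2.54 for Mt1 and -2.25 for Calr.

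A few transcripts crossed over between the states. Gm10154 was at 53.2, 43.9 and 7.72 FPKM among the oxidized A, B and C libraries, but at 6.26, 6.65 and 94.0 FPKM in reduced A, B and C. Gm27695 and Gm19810 showed the same crossing, and Pet117 its mirror image, at 5.24 FPKM in oxidized C, 7.96 and 9.43 FPKM in reduced A and B, and under 0.01 FPKM in the other 3 libraries. These 4 are the genes called in opposite directions in the 2 states and were chosen after their values were seen.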

How the results depend on the processing

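The comparison of C with A and B, 16 calls, gave 0 without an expression filter, 6 without the redox covariate, 227 with the interaction in the fit, 173 with the replicate block on population, 237 without oxidized A and B, and 8 to 484 when 1 library was left out (8 without reduced B, 55 without oxidized C, 484 without reduced C). The block changed the calls of the genes given with a blocked value in the report. The erythroid list, 5 calls, gave 0 without a filter, 8 with median-ratio scaling, 3 with robust estimation, 1 without the covariate, 10 with the interaction in the fit, 10 with the block, 12 without oxidized A and B, and 2 to 10 with 1 library left out. The oxidized comparison, 481 calls, gave 300 without a filter (289 higher, 11 lower) and 956 with robust estimation. The reduced comparison, 55 calls, gave 117 without a filter, 36 at a mean of at least 5 FPKM, 32 with quantile normalization and 134 with robust estimation. The interaction, 115 calls, gave 0 without a filter, 71 with median-ratio scaling, 39 with quantile normalization, 339 with robust estimation and 240 with the population block. C against A and C against B gave 0 without a filter, and C against B gave 20 with quantile normalization. Without a filter 28179 genes were tested; the cause of the other changes was not tested. Leaving out single libraries was run for the comparison over both states and not for the others. Over its alternatives Scamp4, Gm49322 and Cd63-ps were called in 16 of 17, Hba-x and Hbb-bh0 in 15 of 17, Klf1 in 14 of 17 and Hba-a1 in 11 of 17. The sign of 8 genes that were not called in the comparison of C with A and B changed: with 1 library left out, the log2 difference ranged from -0.02436 to 0.2322 for Commd1, -0.328 to 0.371 for Rpl27, -1.007 to 0.4625 for Zfp42 (called at -1.007, adjusted p 0.0479, without oxidized A and B together), -0.2543 to 0.6209 for Gata2, -0.2831 to 0.3439 for Gata4, -0.4215 to 0.4396 for Hand1, -0.8043 to 0.6318 for Sox17 (0.6318 also without oxidized A and B) and -0.3998 to 0.2106 for Foxa2. Population C has the lowest estimated depth, which can limit its low genes most, and this was not tested.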
